A study of Homo sapiens with 9 samples.

Results

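The 10 genes described here are ATF4, ATF3, DDIT3, DDIT4, TRIB3, CHAC1, ASNS, PHGDH, PSAT1 and SHMT2, which belong to the ATF4 stress response and to serine synthesis. They were chosen by symbol, each symbol matched 1 row of the deposited tables, and they are 10 of 48162 genes. RNA came from SKMEL28 cells, an established human melanoma line, and was sequenced in 9 libraries, 3 per group. The shCont cells carried a lentiviral hairpin against GFP, the shp16 cells a hairpin against p16, the cell cycle inhibitor encoded by CDKN2A, and the shp16+shATR cells hairpins against both p16 and the DNA damage kinase ATR. All groups were infected with pLKO.1 lentivirus and selected in puromycin, per the labels at 1 µg/ml for 3 days, and they were kept in DMEM with FBS. For its LSS mRNA values the study names 1 experiment with 3 technical replicates, without saying whether these were the libraries used here. Whether the 3 libraries of a group came from separate infections is thus not known. The p-values below measure the spread between these libraries and cannot be read as that between separate infections. Which ATR hairpin was used is not given in the sources used here, nor is whether the shp16 cells also received a second control virus. A difference between shp16+shATR and shp16 therefore cannot be told apart from that of a second infection. All 3 comparisons share groups, since each group enters 2 of them.

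ATF4 is a transcription factor of the basic leucine zipper family. Its protein is made mainly when the translation factor eIF2 is phosphorylated, as happens under amino acid shortage or protein folding stress, so its mRNA level need not follow its activity. ATF4 also accumulates downstream of mTORC1, and its target genes include those for amino acid uptake, amino acid synthesis and tRNA charging. Among its targets are ATF3 and DDIT3, transcription factors of the same family, the mTORC1 inhibitor DDIT4, the pseudokinase TRIB3 and the glutathione-degrading enzyme CHAC1. Asparagine synthetase (ASNS) and the enzymes PHGDH and PSAT1, which start the synthesis of serine from a glycolytic intermediate, are targets too. Mitochondrial SHMT2 then turns serine into glycine and a one-carbon unit.

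In shp16 cells 5 of the 10 genes rose against shCont and none fell, with CHAC1 (6.04-fold) and ATF3 (2.35-fold) ahead of DDIT4, SHMT2 and ASNS, where 7.23% of all tested genes were higher and 7.59% lower. With both hairpins, CHAC1 and ATF3 were lower than in shp16 cells, at 0.212 and 0.381 of the shp16 level, while DDIT4 was higher again, where 3.49% of all tested genes were lower and 2.73% higher. ATF4 mRNA itself passed the threshold in none of the comparisons in the fit of all 9 libraries. The plot of normalized counts by library gives the values on which these statements rest. Unless another scale is named, levels are CPM, counts scaled to a common library size with TMM normalization, and differences are log2 fold changes with adjusted p-values from edgeR's quasi-likelihood test over the 15776 genes tested. A gene was called at an adjusted p under 0.05. Alternative fits changed the tool, a setting or the libraries used. Of 22 that kept this threshold, 9 called ASNS and 16 called SHMT2 in shp16. DDIT4 in shp16+shATR against shp16 was called in 14 of them.

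**Figure D1:**
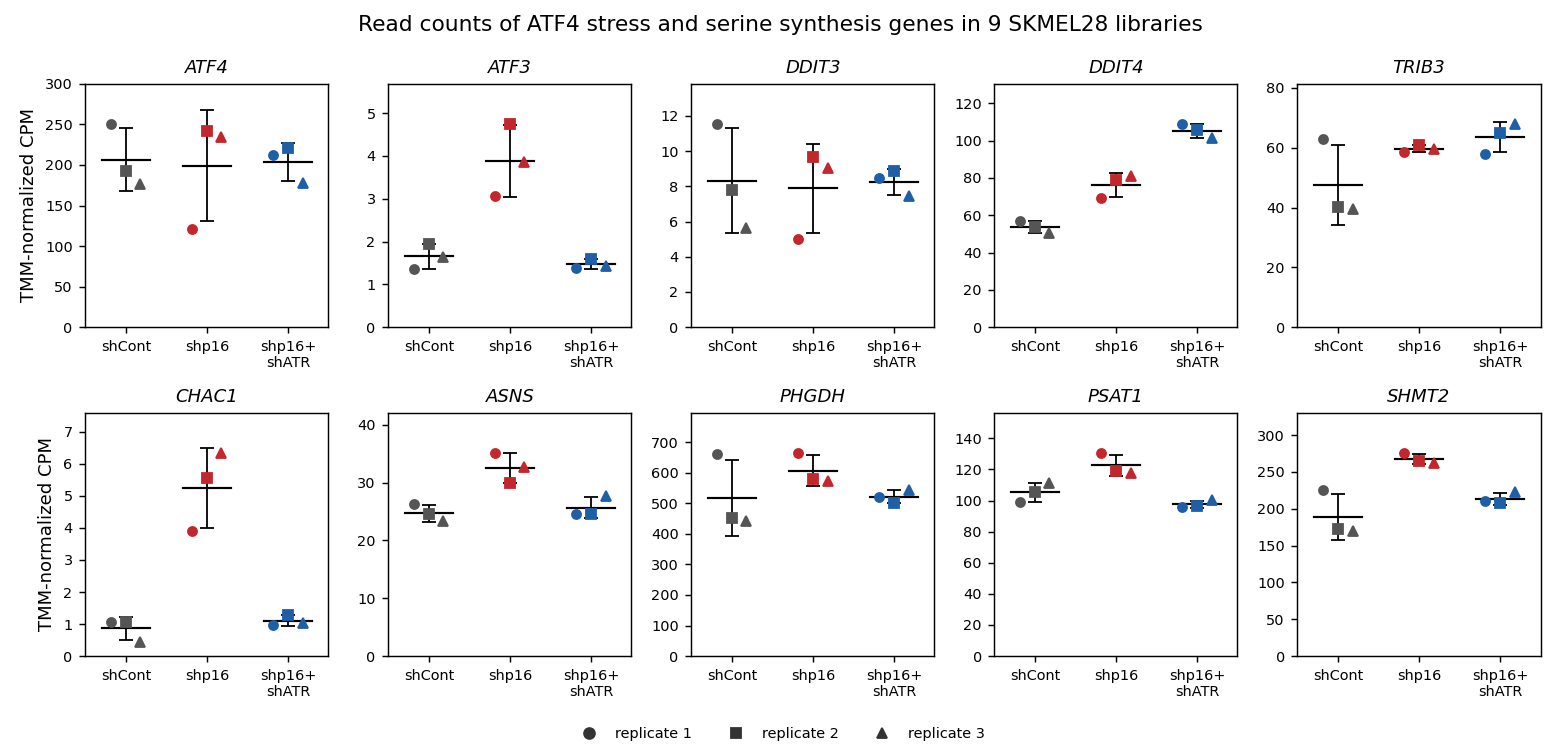
TMM-normalized CPM of each gene (vertical axes, linear and starting at 0) in the 3 libraries of shCont, shp16 and shp16+shATR (points, shaped by replicate), with the group mean (line) and SD (bar). CHAC1 and ATF3 are higher in all 3 shp16 libraries than in the other 6, DDIT4 steps up from group to group, and shp16 replicate 1 is the lowest library for ATF4 and DDIT3.

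Library totals were between 17314662 and 23588174 counts. shCont replicate 1 and shp16 replicate 1 stood apart from their groups. Over 13293 genes, the chi-square per gene against the other libraries of the group was 77.5 and 94.4 for shCont replicate 1 and 42.1 and 41.3 for shp16 replicate 1, while the other pairs gave 1.94 to 10.8. Mitochondrial transcripts took 7.24% of the counts in shp16 replicate 1 and 6.56% in shCont replicate 1, the highest shares of the 9 libraries, whose lowest was 4.25%. The calls of the 10 genes are given with and without these libraries. All 9 melanocyte lineage markers were detected in every group, with a summed level in shCont of 14529 to 16041 CPM, 8634 to 14215 CPM for shp16 and 12225 to 14423 CPM for shp16+shATR. Of these markers S100B (−0.68, adjusted p = 0.013) and TYRP1 (−0.43, adjusted p = 0.0228) were called lower in shp16, where 7.59% of all tested genes were lower. The other 7 were not called. Against shp16, shp16+shATR had TYRP1 lower (−0.88, adjusted p = 0.0014) and S100B higher (0.67, adjusted p = 0.0254), where 3.49% of all tested genes were lower and 2.73% higher. Against shCont it had TYRP1 lower (−1.31, adjusted p = 1.41e-05), where 12.7% of all tested genes were lower. The part of these markers in the results was not tested. CDKN2A stood at 126 ± 31.7 CPM in shCont, beside 90.5 ± 11.2 for shp16 (mean ± SD of 3 libraries), a log2 fold change of −0.48 that did not pass the threshold (adjusted p = 0.0723). This value was −0.26 without shCont replicate 1 and −0.16 without both libraries that stood apart, neither of which passed, and it passed without shCont replicate 3 (−0.60, adjusted p = 0.03). CDKN2A was called in shp16+shATR against shCont (−0.57, adjusted p = 0.0263). That call held in 15 of 22 alternative fits. Among the fits that lost it were those without any 1 of the shp16+shATR libraries (adjusted p from 0.0626 to 0.0923). ATR fell by 1.12 on the log2 scale from shp16 to shp16+shATR (adjusted p = 0.0128). This call held in 17 of 22 alternative fits, with log2 fold changes from −1.15 to −0.97, and was lost without shp16 replicate 1 (adjusted p = 0.0554), without any 1 of the shp16+shATR libraries (0.0577 to 0.0707) and by limma with a replicate block (0.0642). In shCont replicate 1, ATR was at 45.9 CPM, near the 39.9 to 41.0 CPM of shp16+shATR while replicates 2 and 3 of shCont had 93.5 and 96.4 CPM, so for this gene the library labelled shCont replicate 1 was near the level of the other group. Its CDKN2A level of 162 CPM was the highest of the 9 libraries, and its CDH1 level of 1.77 CPM was like that of the other shCont libraries, whereas the shp16 and shp16+shATR libraries had at least 16.9 CPM.

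Of 13 markers of other cell types, 5 had enough counts to be tested. Of these, CDH1, KRT5 and KRT14, epithelial genes, were called higher in shp16 than in shCont, where 7.23% of all tested genes were higher. VWF and LUM were not called, and the epithelial marker EPCAM was too low to be tested. KRT5 was at 0 counts in every shCont library and at 2.03 to 2.99 CPM in shp16, KRT14 at 0 to 0.154 and 2.09 to 2.96 CPM, and CDH1 went from 1.77 to 3.00 CPM in shCont to 16.9 to 18.9 in shp16. The summed level of the 4 epithelial markers was 2.16 to 3.55 CPM for shCont, 22.0 to 24.2 CPM for shp16 and 24.4 to 27.4 CPM for shp16+shATR. The sum over the whole marker list was 35.8 to 45.9, 51.3 to 68.1 and 54.4 to 60.6 CPM in the same order. The leukocyte markers PTPRC and CD3E were at 0 counts in all libraries, as was CD14 in those of shp16+shATR. Their part in the results below was not tested either. In bulk RNA, fewer cells of a type and less RNA per cell cannot be told apart.

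The 10 genes covered a wide range of levels. Per gene length, in FPKM, PHGDH was highest in each group, with means of 162 ± 32.5 for shCont, 189 ± 5.69 for shp16 and 164 ± 3.91 for shp16+shATR (± SD over 3 libraries). It was followed in shCont by ATF4 (102 FPKM), SHMT2 (55.2), PSAT1 (48.3), DDIT4 (30.7), TRIB3 (18.9), ASNS (10.5), DDIT3 (7.20), ATF3 (0.788) and CHAC1 (0.469). In this order the libraries of neighbouring genes did not overlap, except those of SHMT2 and PSAT1. The order differed in shp16, where CHAC1 at 2.87 FPKM stood before ATF3 at 1.84, with overlapping libraries. In shp16+shATR, DDIT4 at 60.2 FPKM lay above PSAT1 at 44.6 without overlap and next to SHMT2 at 62.5 with overlap. The enzymes of serine synthesis were thus abundant in every group.

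**Figure D2:**
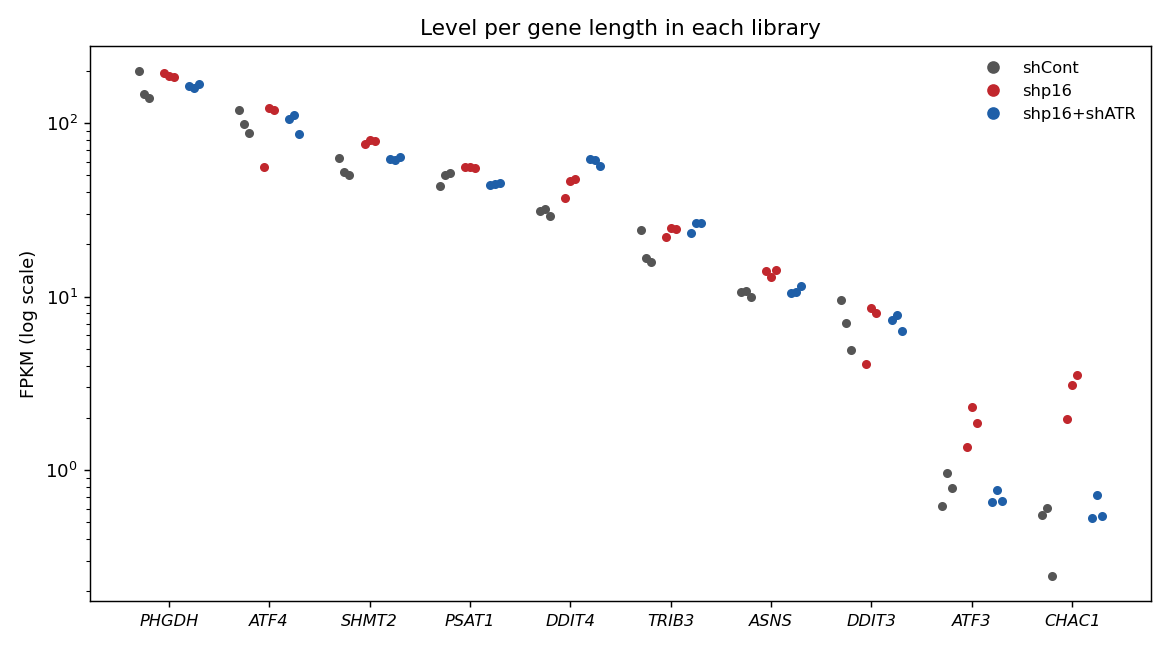
FPKM (vertical axis, log scale) of each gene in each of the 9 libraries, in the order of the shCont means and coloured by group. The level per gene length spans from 0.246 FPKM for CHAC1 in shCont replicate 3 to 200 FPKM for PHGDH in shCont replicate 1, and DDIT4 passes PSAT1 in shp16+shATR.

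ATF4, on chromosome 22 (39915700 to 39918691, positions as in the deposited table, which names no build), had 250, 192 and 176 CPM in shCont replicates 1, 2 and 3. The shp16 libraries had 121, 242 and 235 CPM and the shp16+shATR libraries 213, 221 and 177 CPM. The groups overlapped throughout, and the widest spread was within shp16, where replicate 1 lay far below the others. The log2 fold change was −0.05 (SE 0.229, adjusted p = 0.911) for shp16 against shCont and 0.03 (SE 0.229, adjusted p = 0.965) for shp16+shATR against shp16. With standard errors of this size the libraries could not show a modest difference. Without shCont replicate 1 and shp16 replicate 1, which was tried after the data were seen, these values were 0.37 (adjusted p = 0.00142) and −0.23 (adjusted p = 0.021), so for ATF4 both the direction and the call rested on these 2 libraries.

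DDIT3, which encodes the pro-apoptotic factor CHOP, showed the same spread. It was at 11.5, 7.81 and 5.64 CPM in the shCont libraries, 4.99, 9.67 and 9.02 in those of shp16 and 8.48, 8.87 and 7.43 in those of shp16+shATR. No group stood apart, and the log2 fold changes were −0.08 (adjusted p = 0.881) in shp16 against shCont and 0.06 (adjusted p = 0.933) in shp16+shATR against shp16. Without the 2 libraries that stood apart, the first was 0.47 (adjusted p = 0.0353) and the second −0.18 (adjusted p = 0.403). DDIT3 (chromosome 12, 57910371 to 57914300) shares 982 bases with MARS, the gene of methionyl-tRNA synthetase on the other strand. The sources used here do not say whether counting used strand, so reads of the 2 genes may not be separated.

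ATF3, an immediate-early repressor and activator of stress genes (chromosome 1, 212738676 to 212794119), was at 1.37, 1.95 and 1.65 CPM in shCont. It stood at 3.06, 4.74 and 3.85 CPM in shp16 and at 1.38, 1.60 and 1.43 CPM in shp16+shATR. Every shp16 library lay above every library of the other groups, and shCont and shp16+shATR overlapped. ATF3 rose by a log2 fold change of 1.23 in shp16 (SE 0.24, adjusted p = 0.00551) and fell by 1.39 on the log2 scale in shp16+shATR against shp16 (SE 0.244, adjusted p = 0.00683). Between shp16+shATR and shCont the log2 fold change was −0.16 (adjusted p = 0.702). These values come from 24 to 100 counts per library.

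CHAC1, which degrades glutathione, lies on chromosome 15 from 41245160 to 41248710. It had 24, 21 and 9 counts in shCont, 75, 117 and 130 in shp16, and 17, 30 and 20 in shp16+shATR, or 1.06, 1.08 and 0.45 CPM, then 3.90, 5.55 and 6.34, then 0.98, 1.30 and 1.02. The lowest shp16 library was thus above the highest of the other 6. Its log2 fold change was 2.60 in shp16 against shCont (SE 0.318, adjusted p = 0.000287) and −2.24 in shp16+shATR against shp16 (SE 0.31, adjusted p = 0.00224). For shp16+shATR against shCont, the log2 fold change was 0.35 (SE 0.357, adjusted p = 0.517). CHAC1 had the largest difference of the 10 genes in both of these calls, and at under 10 CPM it was among the least abundant.

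DDIT4, also known as REDD1, inhibits mTORC1 and lies on chromosome 10 from 74033678 to 74035794. It was at 56.7, 53.6 and 50.3 CPM in the shCont libraries, 69.0, 78.8 and 80.8 in those of shp16 and 109, 106 and 101 in those of shp16+shATR. No library overlapped with one of another group, and the order was shCont, shp16, shp16+shATR. The log2 fold change was 0.51 in shp16 against shCont (SE 0.104, adjusted p = 0.00732), 0.47 in shp16+shATR against shp16 (SE 0.103, adjusted p = 0.0224) and 0.97 in shp16+shATR against shCont (SE 0.105, adjusted p = 6.57e-05). The middle value did not pass the threshold when any 1 of the 6 shp16 or shp16+shATR libraries was left out (0.40 to 0.51, adjusted p between 0.0653 and 0.116), whereas the last one passed in all 22 alternative fits. Unlike ATF3 and CHAC1, DDIT4 was thus not lower in shp16+shATR than in shp16. A gene on the other strand that shares 1066 bases with DDIT4 had 0 counts.

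TRIB3, a pseudokinase induced by ATF4 and DDIT3, had 62.9, 40.1 and 39.4 CPM in the shCont libraries, 58.5, 60.8 and 59.5 in those of shp16 and 58.0, 65.1 and 67.9 in those of shp16+shATR. Only shCont replicate 1 reached the level of the other groups. The log2 fold change did not pass the threshold in shp16 (0.33, SE 0.165, adjusted p = 0.209) or in shp16+shATR against shCont (0.42, adjusted p = 0.0856). Without shCont replicate 1 both passed, at 0.58 in shp16 (adjusted p = 0.00041) and 0.68 in shp16+shATR against shCont (adjusted p = 7.61e-05). TRIB3 lies on chromosome 20 from 361261 to 378203.

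ASNS, which makes asparagine (chromosome 7, 97481430 to 97501854), was at 26.2, 24.5 and 23.4 CPM in the shCont libraries, 35.1, 29.9 and 32.7 in those of shp16 and 24.6, 24.6 and 27.7 in those of shp16+shATR. The shp16 libraries were above all others. ASNS rose by a log2 fold change of 0.40 in shp16 (SE 0.111, adjusted p = 0.0334), and the value of −0.34 in shp16+shATR against shp16 did not pass the threshold (adjusted p = 0.0966). The call in shp16 was lost without any 1 of 7 libraries (adjusted p up to 0.0993), and held without shCont replicate 1 or shp16+shATR replicate 3. Over all alternative fits the log2 fold change in shp16 stayed between 0.34 and 0.46.

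SHMT2 (chromosome 12, 57623110 to 57628718) had 226, 172 and 170 CPM in the shCont libraries, 276, 265 and 262 in those of shp16 and 211, 207 and 222 in those of shp16+shATR. Again all 3 shp16 libraries were the highest. The log2 fold change was 0.50 in shp16 (SE 0.121, adjusted p = 0.0183) and −0.32 in shp16+shATR against shp16 (adjusted p = 0.149). Leaving out shCont replicate 2, shCont replicate 3, shp16 replicate 2 or shp16 replicate 3 put the first value at 0.43 to 0.52 with adjusted p between 0.0519 and 0.0689, so the call was lost. Without shCont replicate 1 it was 0.64 (adjusted p = 8.35e-05).

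PHGDH and PSAT1 catalyse the first and second steps of serine synthesis and passed the threshold in none of the comparisons in edgeR. PHGDH (chromosome 1, 120202421 to 120286838) had 661, 452 and 441 CPM in the shCont libraries, 664, 580 and 574 in those of shp16 and 520, 502 and 544 in those of shp16+shATR. Its log2 fold change in shp16 was 0.23 (SE 0.152, adjusted p = 0.351), and without shCont replicate 1, which was near the shp16 level, it was 0.43 (adjusted p = 0.00411). PSAT1 (chromosome 9, 80912059 to 80945009) had 99.1, 105 and 111 CPM in the shCont libraries, 130.5, 119 and 118 in those of shp16 and 95.8, 96.8 and 100.2 in those of shp16+shATR. The PSAT1 libraries of shp16 lay above all others, but the log2 fold changes of 0.22 in shp16 (SE 0.0971, adjusted p = 0.155) and −0.33 in shp16+shATR against shp16 (adjusted p = 0.0718) were not called in the edgeR fit of all 9 libraries. The latter was called in 5 of 22 alternative fits, among them DESeq2 (−0.32, adjusted p = 0.0226) and edgeR without shCont replicate 1. PHGDH differed by −0.22 (adjusted p = 0.482) between shp16+shATR and shp16.

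**Figure D3:**
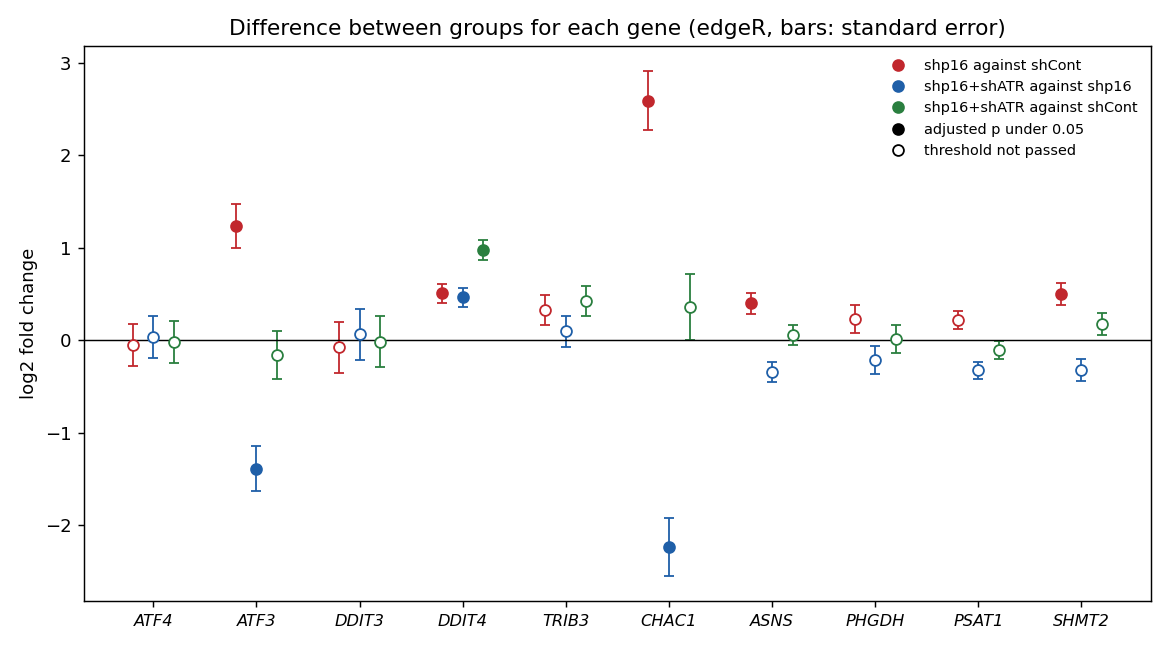
log2 fold change of each gene (vertical axis) with its standard error (bars) for shp16 against shCont (red), shp16+shATR against shp16 (blue) and the outer pair (green), where filled points passed an adjusted p of 0.05. The largest values are those of CHAC1 at 2.60 and −2.24, ASNS, PHGDH, PSAT1 and SHMT2 have small values above 0 in the first comparison and below 0 in the second, and DDIT4 is above 0 in all 3.

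Over the 10 genes, 5 were called higher and 0 lower in shp16 against shCont, where 7.23% of all tested genes were called higher and 7.59% lower (14.8% together). The median log2 fold change was 0.36, beside −0.02 over all genes tested, and 8 of the 10 values were above 0. Between shp16+shATR and shp16, 1 gene was called higher and 2 lower, where 2.73% of all genes were higher and 3.49% lower (6.22% together), with a median of −0.27 over the 10 genes beside 0.0021 over all genes. ASNS, PHGDH, PSAT1 and SHMT2 were uncalled there although all 3 shp16+shATR libraries lay below all 3 shp16 libraries. Over all tested genes, 37.7% had libraries that did not overlap in this comparison, beside 33.6% in shp16 against shCont and 41.5% for the outer groups, and 3 libraries against 3 cannot give an exact two-sided permutation p below 0.1. With shCont as the reference for shp16+shATR, DDIT4 alone was called, where 23.6% of all genes were called in either direction, and the median over the 10 genes was 0.03.

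These counts depended on the 2 libraries that stood apart. Without shCont replicate 1, 7 genes were called higher in shp16 (ASNS, ATF3, CHAC1, DDIT4, PHGDH, SHMT2 and TRIB3), where 13.4% of all genes were called higher. In the same fit ASNS, ATF3, CHAC1, PSAT1 and SHMT2 were called lower in shp16+shATR than in shp16 and DDIT4 higher, where 11.0% of all genes were lower and 8.94% higher, and DDIT4, SHMT2 and TRIB3 were called higher in shp16+shATR than in shCont, where 15.9% were higher. Without both libraries, PSAT1 alone of the 10 genes was not called higher in shp16, with 16.9% of all genes called higher. In that fit 7 genes were called lower and DDIT4 higher in shp16+shATR against shp16, with 14.3% of all genes lower and 12.4% higher. Against shCont, shp16+shATR then had DDIT4, PHGDH, SHMT2 and TRIB3 called higher and PSAT1 lower, with 44.3% of all genes called. The share of all genes called rose as well in these fits, and the spread between libraries, as edgeR's biological coefficient of variation, went from 0.149 to 0.0903 and 0.0553.

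**Figure D4:**
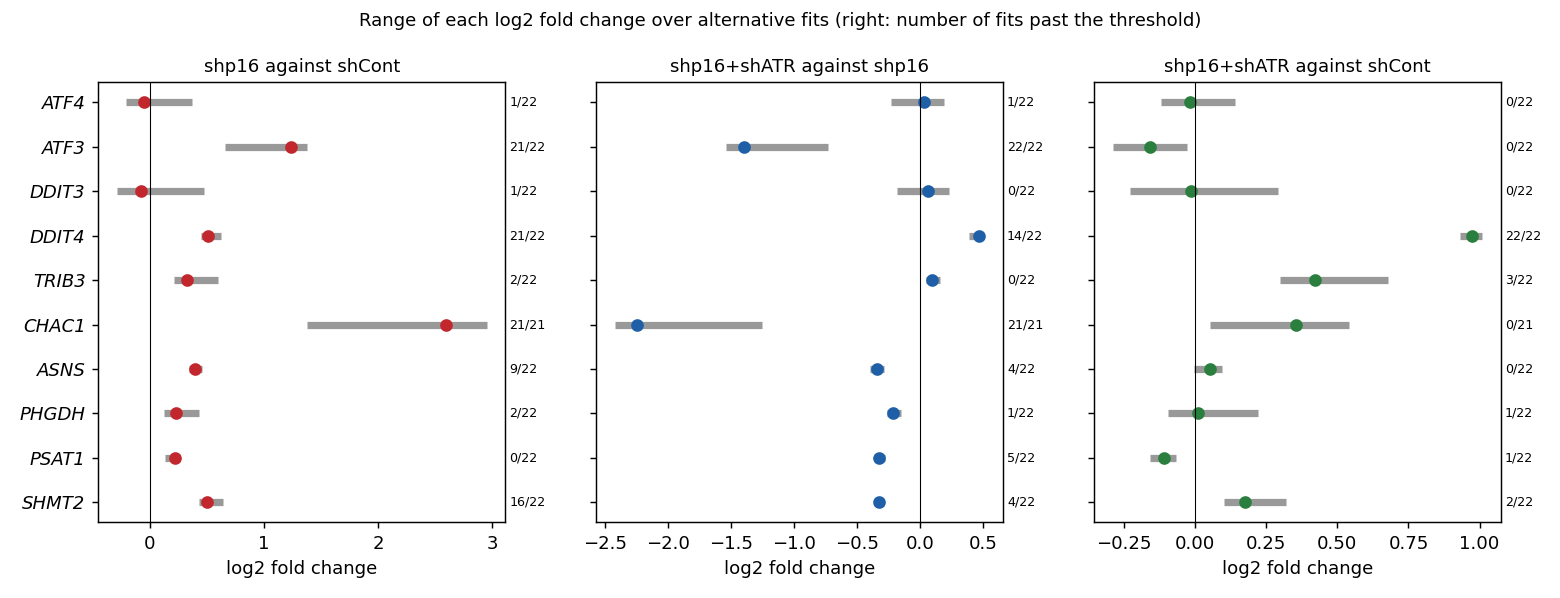
Lowest to highest log2 fold change (grey bars, horizontal axes) of each gene over the alternative fits, with the value reported in the text (points) and, at the right, how many of the fits passed the threshold. The bars of ATF4 and DDIT3 cross 0, while those of all the other genes stay on 1 side of 0 in the first and second panels.

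The promoters of the 10 genes were read for the letters that C/EBP-ATF composite elements share, because ATF4 binds such elements as a dimer with a C/EBP protein. RefSeq promoter windows of GRCh38.p14, each 300 bases long with 250 before the start, were given for 9 of the 10 genes, all but SHMT2. TGATGNAA, searched on both strands, was found for ATF3, ASNS and CHAC1, 3 of 9 genes, beside 4.46% of the 27305 genes with a window. The 9 genes had 15 windows, and a gene with more windows has more places for a match. Of all 35116 windows, 3.62% held TGATGNAA. The stricter TGATGCAA, each match of which is also one of TGATGNAA, was found for CHAC1 alone, beside 1.08% of all genes, and the full cyclic AMP element TGACGTCA was found for 0 of 9 genes beside 2.25% of all genes. The 3 matches are shown with their flanks, 30 bases each, since these are the genes of the 10 in which the letters occur, and the capitals mark the match.
ATF3: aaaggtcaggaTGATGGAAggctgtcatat
ASNS: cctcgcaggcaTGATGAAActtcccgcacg
CHAC1: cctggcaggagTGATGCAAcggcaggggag
The ATF3 stretch is chr1:212565205-212565234 on the plus strand, with the match beginning 191 bases before 1 of 2 listed starts. The ASNS stretch is chr7:97872458-97872487 on the minus strand, 68 bases before 1 of 2 starts, and the CHAC1 stretch is chr15:40953251-40953280, read on the minus strand, opposite to the gene, 209 bases before its start. A match describes letters and no binding was measured. ATF3, ASNS and CHAC1 were called higher in shp16, as were DDIT4, whose window held none of these letters, and SHMT2, for which no window was given.

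Of 25 other ATF4 targets tested, 6 were called higher and 2 lower in shp16 against shCont, beside 7.23% and 7.59% of all tested genes, with a median log2 fold change of 0.20. When 1 library was left out, 5 to 15 of them were called. For this list and those below, the highest of such counts in shp16 against shCont came without shCont replicate 1. CTH, which makes cysteine from cystathionine, rose by 1.03 on the log2 scale (adjusted p = 0.000342), from 15.7 to 19.1 CPM in shCont to 30.4 to 39.5 in shp16. The lipoprotein receptor VLDLR (0.60, adjusted p = 0.0114) and the mTORC1 regulator SESN2 (0.60, adjusted p = 0.0197) also rose. PPP1R15A, the eIF2 phosphatase subunit GADD34, fell by 0.80 on the log2 scale (adjusted p = 0.00575). Chosen after their values were seen, the secreted factors STC2 (2.58, adjusted p = 0.00309) and ADM2 (1.56, adjusted p = 0.000725) rose from means of 0.544 and 1.44 CPM in shCont. The others called were JDP2, higher, and CCPG1, lower.

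Adding the ATR hairpin, 1 of these 25 targets was called against shp16, where 6.22% of all tested genes were called. Their number ran from 0 to 5 with 1 library left out, and limma called 0. SESN2 fell by 0.57 on the log2 scale (adjusted p = 0.0436), with 13.2, 14.8 and 12.4 CPM in shp16 and 7.90, 8.57 and 10.8 in shp16+shATR. CTH, VLDLR and PPP1R15A were not called there, and all 3 were called in shp16+shATR against shCont, at 0.90, 0.80 and −0.94. In that comparison 8 targets were higher and 3 lower, where 10.9% of all tested genes were higher and 12.7% lower. Among those higher was NUPR1 at 0.69 (adjusted p = 0.0232).

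Of 20 cytosolic aminoacyl-tRNA synthetases, 4 were called higher and 0 lower in shp16, namely WARS1 (0.55), VARS1 (0.52), YARS1 (0.50) and MARS1 (0.44, listed as MARS), with adjusted p between 0.0167 and 0.0248, where 7.23% of all tested genes were higher and 7.59% lower. With 1 library left out, 0 to 7 were called, and 0 came without shCont replicate 2. The median of the list was 0.10, and 11 of 20 values were above 0. WARS1, which interferon also induces, was called higher again in shp16+shATR against shp16 (0.49, adjusted p = 0.049), a call on 1 of 20 genes where 6.22% of all genes were called, and 0 to 2 of the list passed with 1 library left out. WARS1 and MARS1 (0.40) were called in shp16+shATR against shCont, 2 of 20 genes where 23.6% of all genes were called. Of 10 amino acid transporters, SLC7A1 (0.68, adjusted p = 0.0267) and SLC38A2 (0.65, adjusted p = 0.0287), carriers of cationic and neutral amino acids, rose in shp16, where 7.23% of all genes were higher, and 0 to 4 passed with 1 library left out. In shp16+shATR against shp16, edgeR called 0 of the 10 transporters, where 6.22% of all genes were called. There, 2 transporters had an unadjusted p under 0.05 in edgeR, while DESeq2 and limma called 1 each. The median of the transporters in this comparison was −0.05.

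Of 20 other enzymes of serine, glycine and folate metabolism, 3 were called higher and 1 lower in shp16, where 14.8% of all genes were called, and 2 to 7 passed with 1 library left out. GLDC, the glycine decarboxylase, rose from 11.3 ± 0.663 to 21.0 ± 2.51 CPM (SD, n = 3 each), a log2 fold change of 0.89 with an adjusted p of 0.000657 in edgeR. The thymidylate synthase TYMS rose by 0.43, while MTRR, which reactivates methionine synthase, fell by 0.66 on the log2 scale. When shp16+shATR was set against shp16, 1 was called higher and 3 lower, where 6.22% of all genes were called. With 1 library left out this count ran from 1, without any 1 of the shp16 or shp16+shATR libraries, to 9, without shCont replicate 1. MTHFD2, which follows SHMT2 in the mitochondrial folate pathway, fell by 0.67 on the log2 scale (adjusted p = 0.00496), from 54.9, 48.0 and 49.8 CPM to 30.6, 31.0 and 34.6. TYMS fell as well (−0.44, adjusted p = 0.045). Against shCont, 2 enzymes were higher and 4 lower in shp16+shATR, where 10.9% of all genes were higher and 12.7% lower. Among these enzymes were MTRR at −1.10 and GLDC at 0.87.

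Of 18 genes for eIF2 kinases, phosphatases and eIF2B, GCN1, the activator of the amino acid-sensing kinase GCN2, was called in shp16 (0.42, adjusted p = 0.0367), 1 gene of the list where 14.8% of all genes were called and 0 to 3 passed with 1 library left out. edgeR called 0 genes of the list in the other comparisons. Of all genes, 6.22% were called in shp16+shATR against shp16 and 23.6% in shp16+shATR against shCont. At an unadjusted p under 0.05 there were 2 in shp16+shATR against shp16, where DESeq2 and limma called 0, and 6 in shp16+shATR against shCont, where DESeq2 called 2 and limma 1. Of 20 genes of the XBP1 and ATF6 arms of the unfolded protein response, 1 was called higher and 2 lower in shp16, again where 14.8% of all genes were called. limma called 1 gene of the list, and 0 to 6 passed with 1 library left out. The chaperone HSPA5 fell by 0.38 and its cofactor DNAJB9 by 0.42 on the log2 scale, and EDEM1 rose by 0.49. The median of this list was −0.13 in shp16. In shp16+shATR against shp16 edgeR called 0 of its genes, where 6.22% of all genes were called. There, 3 of its genes had an unadjusted p under 0.05 in edgeR, while DESeq2 called 1 and limma 0.

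Among 18 bZIP partners and regulators of ATF4 protein, JUN and FOS, subunits of AP-1, were called in opposite directions in the 2 comparisons that share the shp16 libraries. JUN was at 39.9, 40.1 and 39.2 CPM in the shCont libraries, 60.2, 68.2 and 68.5 in those of shp16 and 40.4, 43.2 and 42.3 in those of shp16+shATR. It rose by 0.72 on the log2 scale in shp16 (adjusted p = 0.00057) and fell by 0.64 on the log2 scale in shp16+shATR against shp16 (adjusted p = 0.00357). FOS was called at 0.48 and −0.72 in the same comparisons. In all, 3 genes of this list were higher and 3 lower in shp16, where 14.8% of all genes were called. Beside JUN and FOS, ATF7 (0.63) was higher, and EGLN3 (−0.65), FOSL1 and FOSL2 were lower. FOSL1 and FOSL2, also AP-1 subunits, thus did not follow JUN and FOS. In shCont, shp16 and shp16+shATR, FOSL1 had means of 85.0, 61.8 and 100.7 CPM and FOSL2 of 110, 80.5 and 59.4 CPM. In shp16+shATR 1 gene of the list was higher (FOSL1, 0.71) and 3 lower (FOS, JUN and FOSL2) than in shp16, where 6.22% of all genes were called. Against shCont, 4 were higher and 1 lower in shp16+shATR, where 23.6% of all genes were called. With 1 library left out, 2 to 8, 2 to 8 and 3 to 9 of the list passed in the order of the comparisons.

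**Figure D5:**
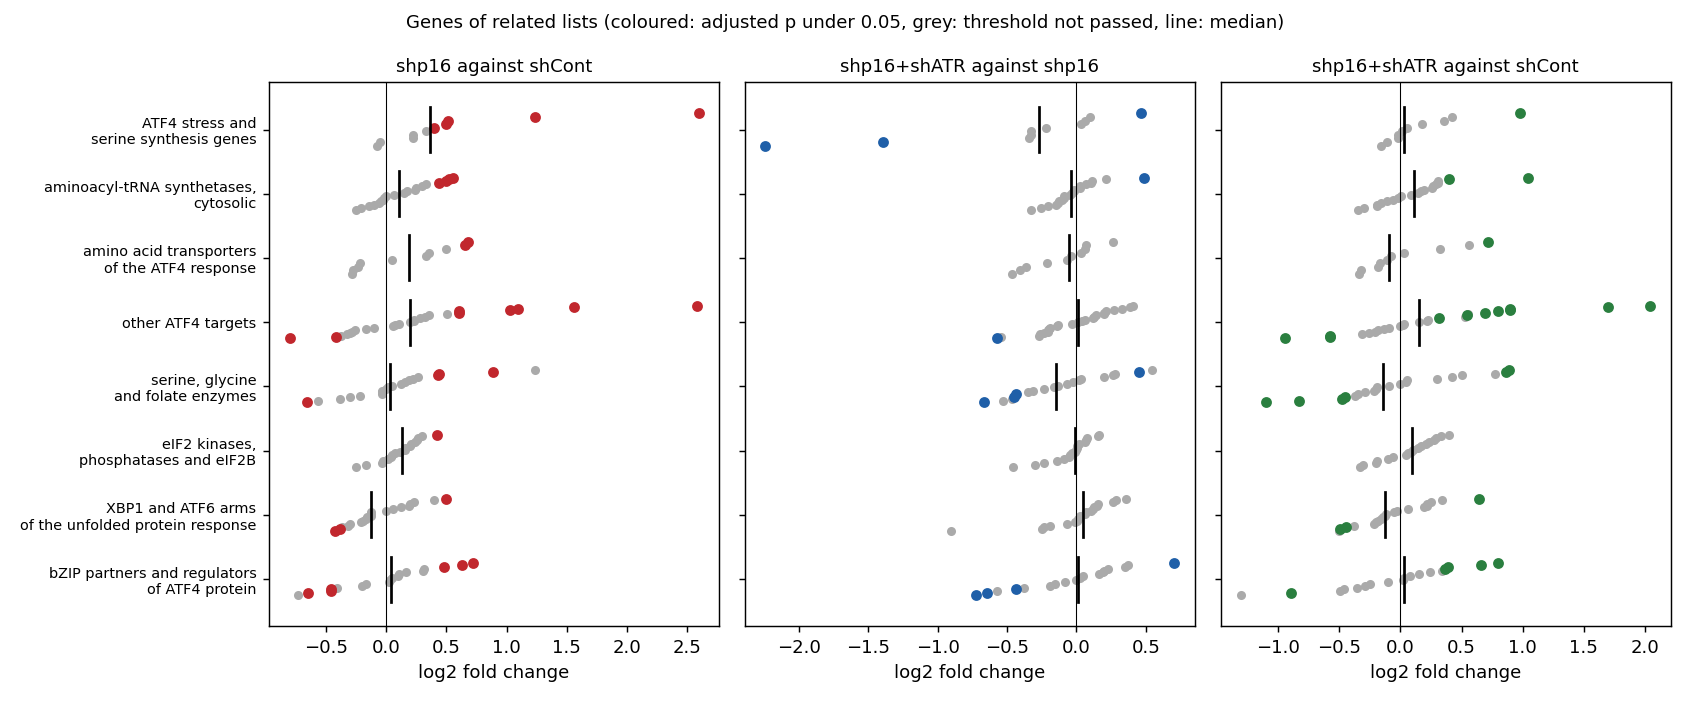
log2 fold change (horizontal axes) of each tested gene of the 8 lists in the 3 comparisons, with genes past an adjusted p of 0.05 in colour, the others in grey and the median of each list as a line. The 10 ATF4 stress and serine synthesis genes have medians of 0.36 and −0.27 in the first and second panels, and the medians of the other lists lie between −0.13 and 0.20 in the first and between −0.15 and 0.05 in the second.

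Without shCont replicate 1 and shp16 replicate 1, more genes of these lists passed, as did more of all genes. In shp16 against shCont, 11 of 26 tested other ATF4 targets were then higher and 6 lower, 7 synthetases higher and 4 lower, 3 transporters higher and 3 lower, and 6 serine, glycine and folate enzymes higher and 3 lower, where 16.9% of all genes were higher and 15.8% lower. In shp16+shATR against shp16, 7 of these enzymes were lower and 3 higher, 4 transporters lower and 0 higher, and 4 synthetases higher and 0 lower, where 12.4% of all genes were higher and 14.3% lower.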

How the data were processed

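RNA of 9 SKMEL28 libraries was made into libraries with an NEBNext Ultra kit and sequenced by Novogene. The submitters' processing notes list STAR 2.6.1, DESeq2 and GRCh38 without roles, and the counting program and its strand setting are not given in the sources used here. The authors deposited raw counts per gene for 48162 genes, not normalized, and FPKM values, which equalled the count scaled by gene length and library total within a relative difference of 1.52e-08. The 3 shp16+shATR count columns share 1 name and were numbered by this identity. The number of unused sample columns was 0. The table names no build, and its coordinates were not those of GENCODE 29 on GRCh38, with equal start and end for 261 of 45342 shared genes and an equal start or end for 0 of the 10 genes.

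Counts were fitted with edgeR 4.0.16 in R 4.3.3 (TMM, filterByExpr, quasi-likelihood test, 9 libraries, 1 coefficient per group), with Benjamini-Hochberg adjustment over 15776 genes. Permutation tests used scipy 1.17.1. Alternatives were DESeq2 1.42.0, other normalizations and filters, fits of 2 groups, the replicate number as a block, limma 3.58.1 on log2 of FPKM plus 1 or 0.1, stricter thresholds and leaving out libraries. The genes and lists were chosen with earlier results of these data known. Genes named are the 10 genes, CDKN2A, ATR and, per list and comparison, up to 4 called genes with a mean of at least 5 CPM and the largest change. Others, among them STC2, ADM2, JDP2, CCPG1, CDH1, KRT5 and KRT14, were chosen after their values were seen. Some genes that this rule names are not reported here.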

Additional observations from a re-analysis of the deposited data

How the results depend on the processing

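Over 22 alternative fits that keep the threshold, CHAC1 and ATF3 kept their direction and were called when shp16 was set against shCont and when shp16+shATR was set against it, except that CHAC1 was not tested with a minimum of 10 counts in every library and ATF3 lost its call in shp16 (adjusted p = 0.058) when 2 groups were fitted with a block, an alternative added after the data were seen. Adding 1 to FPKM made their log2 fold changes smaller, down to 1.38 and −1.25 for CHAC1 and 0.66 and −0.73 for ATF3. Of 717 values of single genes, 627 kept direction and side of the threshold, 37 lost and 25 gained the call and 28 changed sign.

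The number of the 10 genes called in shp16 against shCont was 2 at an absolute log2 fold change of at least 1, 3 at an adjusted p of 0.01, 3 with 2 groups fitted, 1 with 2 groups and the block, 9 without shCont replicate 1 and shp16 replicate 1, and 3 to 7 when 1 library was left out. Between shp16+shATR and shp16 it was 6 with 2 groups fitted, with or without the block, 8 without both libraries and 2 to 6 with 1 left out. Between shp16+shATR and shCont it was 0 at a log2 fold change of at least 1, 2 without a filter on low counts, 5 without both libraries and 1 to 3 with 1 left out. The median of the 10 genes was 0.54 in shp16 and 0.25 in shp16+shATR against shCont without both libraries, and with 1 left out it ran from 0.31 to 0.49, from −0.30 to −0.25 and from −0.03 to 0.26 in the order of the comparisons.

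For all genes, 2339 were called in shp16 against shCont, and 779 at a log2 fold change of at least 1, 994 at an adjusted p of 0.01, 5264 without both libraries, 1416 by limma with the block, 1186 with 2 groups, 423 with 2 groups and the block, and 1344 to 4192 with 1 library left out. Between shp16+shATR and shp16, 981 were called, and under the same settings 165, 309, 4304, 444, 2878 and 2145, with 1508 by DESeq2, 612 with the replicate block and 292 to 3223 with 1 left out. Set against shCont, shp16+shATR had 3724 called, and 1178, 1974 and 7130 under the first 3 settings, with 2354 to 5395 with 1 left out.

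The signs that changed belonged to values near 0 in the fit reported above, but some were called in an alternative fit. Without both libraries ATF4 was at 0.37, −0.23 and 0.14 in the order of the comparisons, DDIT3 at 0.47, −0.18 and 0.29, and ATR in shp16 against shCont at −0.17. In that edgeR fit the adjusted p for shp16 against shCont was 0.00142 for ATF4, 0.0353 for DDIT3 and 0.0421 for ATR. For ATF4 in shp16+shATR against shp16 it was 0.021. The log2 fold change of DDIT3 in shp16+shATR against shCont was 0.0023 in DESeq2 and 0.00057 with RLE normalization. By limma it was 0.042 with 0.1 added, 0.032 with 1 added and 0.032 with the block. With 2 groups and the block it was 0.038. DDIT3 was called in this comparison in 0 of 22 alternative fits. The log2 fold change of PHGDH in shp16+shATR against shCont was −0.014 with upper-quartile normalization. With 1 library left out, ATF4 ran from −0.21 to 0.21, from −0.23 to 0.19 and from −0.12 to 0.14, DDIT3 from −0.29 to 0.23, from −0.18 to 0.23 and from −0.23 to 0.29, ATR in shp16 from −0.12 to 0.33, and in shp16+shATR against shCont PHGDH ran from −0.094 to 0.22 and ASNS from −0.0041 to 0.095.

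The libraries showed no sign of pairing by replicate number. Same-numbered libraries had correlations of their deviations from the group means between −0.24 and 0.22, and 1 of 9 correlated best with its own number. With so few libraries this does not settle whether same-numbered libraries were handled together, which the sources used here do not give. With the replicate number as a block, 4 of the 10 genes were called in shp16 (ASNS at an adjusted p of 0.0612), 2 in shp16+shATR against shp16 (DDIT4 at 0.0573) and 1 in shp16+shATR against shCont. The cause of these moves was not tested. Depth limits CHAC1 and ATF3 most, with 9 to 130 counts per library.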
